A study of Mus musculus with 860 samples.

Results

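Hemogenic endothelium (HE) cells of the mouse aorta-gonad-mesonephros (AGM) region that carried reads of both Hey1 and Hey2 were compared with HE cells that carried reads of neither. The cells were sorted one by one by index sorting, in which the fluorescence of each sorted cell is recorded, and each gave 1 Smart-Seq2 library. HE was the CD31+cKIT-GFI1+ gate of Gfi1:tomato embryos (strain given as CD1/Gf1+) at embryonic days E10.5 and E11.5; the other gates, GFI1+ and GFI1- intra-aortic hematopoietic clusters (IAHC), enter only the closing section. Embryos were pooled before sorting and no embryo is named for a cell, so cells of one stage and batch are treated as 1 sample; the labels give the batch as a code and do not say what it marks. Every HE cell carries the Gfi1 reporter allele, no genotype or treatment separates the classes, and a class is a property read from the cell itself.

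The rule took the kept HE cells in the deposited Louvain clusters 0 to 5. A cell was double-positive with at least 1 count of Hey1 and at least 1 count of Hey2, and double-negative with 0 counts of both. Of 860 sequenced cells 775 were kept, 281 of them HE, and 263 HE cells lay in clusters 0 to 5. The cells were thus chosen by their raw counts of Hey1 and Hey2. Of the 263, 59 were double-positive (22.4%), 94 carried Hey1 only and 7 carried Hey2 only, and the others, 39.2%, were double-negative. Classes were compared within a stratum, meaning 1 stage in 1 batch, wherever both classes had at least 5 cells. This left 3 of 5 strata: E10.5 batch GL78 with 22 double-positive and 30 double-negative cells, E11.5 GL53 with 26 and 43, and E11.5 GL78 with 7 and 17. Batch GL58 had 1 double-positive and 5 double-negative cells at E10.5, and 3 and 8 at E11.5.

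Some libraries appear to repeat a cell. Over all sequenced cells, kept or not, 15 pairs of libraries had log2 counts that correlated at 0.958 or more, against at most 0.913 for any other pair and a median of 0.598, and 7 of the 15 also carried the same index-sort record. Among HE cells, 2 of these pairs were double-positive, 2 were Hey1-only and 0 were double-negative, so that the 59 double-positive libraries hold 57 cells if each pair is 1 cell. One double-positive pair joins E11.5 GL53 to E11.5 GL78, and the other joins E10.5 GL78 to E10.5 GL58. Counts of cells below are of libraries, and results that the pair at E11.5 changes are given without it as well.

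Hey1 and Hey2 encode basic helix-loop-helix repressors. They are direct targets of the Notch pathway, in which a ligand of a neighbouring cell triggers the cleavage of the receptor and its intracellular part joins RBPJ on DNA. In the embryonic aorta Notch signalling drives arterial identity, and HE, the endothelium that buds into hematopoietic cells, arises there. Hey2 is the gene best known for arterial fate, and Nr2f2 (COUP-TFII), which represses the Notch pathway in veins, for venous fate.

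Hey1 lies at chr3:8663359-8667256 and Hey2 at chr10:30832359-30842801 (mm10). The values that chose the cells are a description only. Double-positive cells held 3 to 1386 counts of Hey1 and 1 to 354 counts of Hey2, with medians of 355 CPM of Hey1 and 94.8 CPM of Hey2 per cell, where CPM, counts per 1000000 counts, scales a count to the total of the cell or class. Just inside the rule lay 4 double-positive cells with a single Hey2 count, each with at least 230 counts of Hey1, and just outside it lay the 94 Hey1-only cells, of which 2 had a single count of Hey1. Hey1-only cells had a median of 108.3 CPM of Hey1 and a highest count of 1423, so the classes overlap in Hey1. In the Hey2-only cells Hey2 ranged between 7 and 536 counts.

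The classes fell into different deposited clusters. Cluster 4 held 53 of 59 double-positive cells (89.8%, exact binomial 95% interval 79.2 to 96.2%) and 0 double-negative cells, which allows a share of up to 3.52%. Of the remaining double-positive cells, 4 lay in cluster 1 and 2 in cluster 2. Double-negative cells were spread over clusters 0, 1, 2, 3 and 5, with 26, 22, 10, 27 and 18 cells. All 7 Hey2-only cells lay in cluster 4, but only 9 of 94 Hey1-only cells did, and 56 of these were in cluster 1. By gene, 60 of 66 HE cells with Hey2 reads were in cluster 4 (90.9%, 81.3 to 96.6%), against 62 of the cells with Hey1 reads (40.5%, 32.7 to 48.7%), 53 cells being in both sums. With repeats counted once, cluster 4 held 51 of 57 double-positive cells (89.5%, 78.5 to 96.04%). The authors built the clusters on highly variable genes of the same cells, so class and cluster cannot be taken as independent readings. Intervals in this text cover counting error only.

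**Figure D1:**
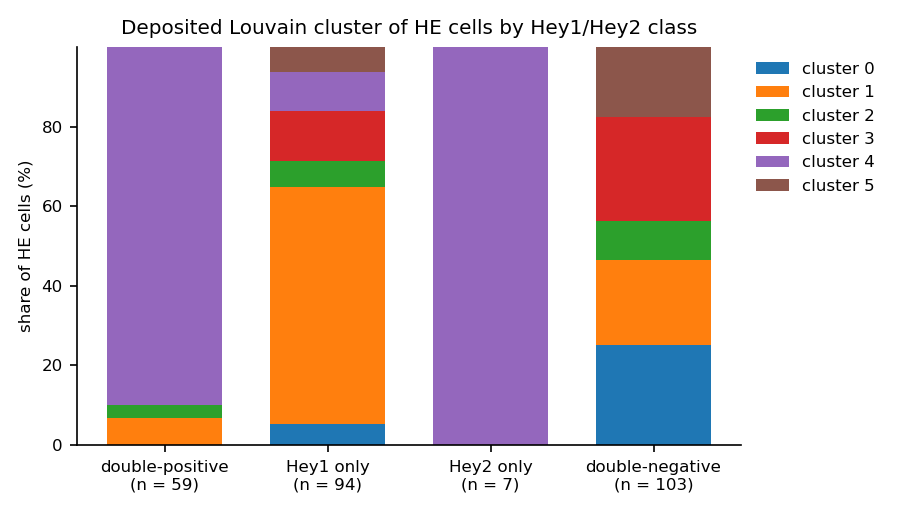
Share of HE cells (y axis, %) in each deposited Louvain cluster, by class (x axis). Cluster 4 holds 53 of 59 double-positive cells and all 7 Hey2-only cells, 9 of 94 Hey1-only cells and 0 double-negative cells.

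Median counts per cell were 897890 in double-positive and 840790 in double-negative cells at E10.5 GL78, 614343 and 750814 at E11.5 GL53, and 741711 and 755220 at E11.5 GL78. After thinning each cell to 50000 counts, the median number of genes detected was 5726 in double-positive and 6040.5 in double-negative cells at E10.5 GL78, 4361 and 5195 at E11.5 GL53, and 5373 and 5235 at E11.5 GL78. The median mitochondrial share was higher in double-positive cells in each of the 3 strata, at 1.32, 2.77 and 1.71%, against 1.04, 2.30 and 1.41% in double-negative cells. Cells called G1 made up 79.7% of double-positive cells (67.2 to 89.02%) and 33.98% of double-negative cells (24.9 to 43.97%). The part of cell cycle phase in the gene results was not tested. Among cells called G1 alone, 494 genes were higher (4.81%) and 320 lower (3.12%) by the rule used below. Of these, 71.7% of the higher and 42.8% of the lower ones were also called in the comparison of cells of all phases.

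Both classes carried the markers of the gate's endothelium. Pecam1, which encodes CD31, had reads in 55 of 55 double-positive and 88 of 90 double-negative cells of the used strata, and Cdh5, VE-cadherin, in 55 of 55 and 85 of 90. Gfi1 itself, the gene of the reporter, had reads in 7 of 22 double-positive cells at E10.5 GL78 and in 0 of 33 double-positive cells at E11.5 and 0 of 90 double-negative cells, which allows a share of up to 4.02% in the last. Runx1, the transcription factor required for the hematopoietic step, had reads in 9 of 22 double-positive and 2 of 30 double-negative cells at E10.5 GL78, in 2 of 26 and 4 of 43 at E11.5 GL53, and in 0 of 7 and 1 of 17 at E11.5 GL78.

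Counts were summed over the cells of a class in a stratum and scaled to CPM. A gene was called higher or lower where the log2 ratio of CPM + 1 was at least 2-fold the same way in all 3 strata, among 10072 genes at 10 CPM or more in the higher class. Each class and stratum gave 1 pooled sample, so differences carry no p-value; a ratio is reported as the mean ± SD over the 3 strata, of which both at E11.5 hold the repeated double-positive cell. The call took 591 genes as higher (5.87%) and 319 as lower (3.17%) in double-positive cells, Hey1 and Hey2 being among the higher. These shares over all tested genes are the background of every list count of this comparison below. Without the repeated cell the call gave 580 higher and 315 lower genes when it was left out of E11.5 GL53, and 551 and 305 when it was left out of E11.5 GL78. The median log2 ratio over all tested genes was -0.02. In at least 1 stratum, 1 cell held more than 50% of the counts of the higher class for 52.8% of the higher and 36.1% of the lower genes, and these were left out where genes were named by size.

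Of the gene lists for endothelium and blood, the arterial one had the highest median ratio. Of the 18 members of the arterial list, 14 were higher and 0 lower, and the list's median log2 ratio was 3.67 (3.90 with genes at 0 counts set to their bound), beside 5.87% higher among all genes. Connexin 40 joins arterial endothelial cells through gap junctions, and its gene, Gja5, stood at 1367, 1664 and 1346 CPM in double-positive cells at E10.5 GL78, E11.5 GL53 and E11.5 GL78, against 0, 0.0648 and 1.60 CPM in double-negative cells. It had reads in 53 of 55 double-positive cells and in 2 of 90 double-negative cells. At E10.5 GL78 this was at least 12024-fold higher, taking 3 counts as the floor. Gja4, connexin 37, was at 2093, 2969 and 2353 CPM in double-positive cells, against 2.16, 18.4 and 0 CPM in double-negative cells, with reads in 55 of 55 and 7 of 90 cells. No stratum of one class reached a stratum of the other for either connexin. Both were named for the size of their ratios, so this is a description only.

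Bmx, a kinase of arterial endothelium, was at 91.2, 250.7 and 96.6 CPM in double-positive cells and at 0, 0.356 and 0 CPM in double-negative cells, where 1 of 90 cells had reads. Sema3g, an arterial semaphorin, was at 65.5, 98.1 and 162.8 CPM in double-positive cells, against 0.265, 1.07 and 0 CPM in double-negative cells. Tmem100, a BMP target of arteries, was at 297, 402 and 243.7 CPM, against 2.31, 5.60 and 0 CPM in double-negative cells. The Wnt antagonist gene Dkk2 was at 45.2, 362 and 275 CPM in double-positive cells, against 0, 0.648 and 0 CPM in double-negative cells. Without the repeated cell, Dkk2 was at 158.5 CPM in double-positive cells at E11.5 GL78. For each of these 4 genes, every stratum of double-positive cells lay above every stratum of double-negative cells. The genes were named for their ratios or after their values were seen, so this separation is a description only.

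Other arterial members differed by degree. Efnb2, the arterial ephrin, had a log2 ratio of 2.62 ± 0.44 and Nrp1, a VEGF co-receptor of arteries, of 2.31 ± 0.19 (SD, n = 3 strata). Unc5b reached 4.12 ± 1.31. The guidance chemokine gene Cxcl12 was at 11.8, 165.6 and 57.96 CPM in double-positive cells and at most 0.720 CPM in double-negative cells. The lowest arterial member was Gja1, connexin 43, at 0.22 ± 1.08, which was not called, and Sox17 at 1.21 ± 0.53 also missed the call.

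Of the 12 genes with the largest smallest-stratum ratio, Gja5, Gja4, Bmx, Tmem100 and Sema3g are listed above as arterial, and matrix genes formed another part. Lama3, a laminin chain, was at 122.7, 402 and 130.8 CPM in double-positive cells, against 0, 0.0324 and 0 CPM in double-negative cells. Ltbp4, which binds latent TGF-beta and helps lay down elastic fibres, was at 234.8, 1176 and 1462 CPM, against 0.341, 16.9 and 18.8 CPM in double-negative cells. Fbln2, fibulin 2, was at 57.9, 1191 and 1006 CPM, against 0, 4.66 and 29.6 CPM, and P4ha3, a collagen prolyl hydroxylase, at 97.7, 493 and 256.7 CPM, against 0, 4.44 and 0.628 CPM. The others were Pde3a, a cyclic nucleotide phosphodiesterase, with a log2 ratio of 6.66 ± 1.14, and Synpo, an actin-associated protein, with 6.49 ± 1.42.

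Ace completed the higher genes. It encodes angiotensin-converting enzyme, known as a marker of early human hematopoietic precursors, and was at 23.6, 45.2 and 35.96 CPM in double-positive cells, with reads in 30 of 55 cells. It had 0 reads in all 90 double-negative cells, which is at least 207.2-fold, 465-fold and 171.8-fold higher in double-positive cells at E10.5 GL78, E11.5 GL53 and E11.5 GL78, with 3 counts per class and stratum as the floor. These ratios need no pseudocount.

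The vessel wall list had 15 members at 10 CPM, of which 6 were higher and 1 lower, with a median log2 ratio of 3.59. Among all genes 5.87% were higher and 3.17% lower. Vwf, von Willebrand factor, was at 1656, 4602 and 3262 CPM in double-positive cells, against 60.97, 107.3 and 270.4 CPM in double-negative cells. Fn1, fibronectin, had a log2 ratio of 3.59 ± 0.96 and Fbn1, fibrillin 1, of 4.71 ± 0.82. The lower member was Ptgs1, cyclooxygenase 1, at 11.8, 2.15 and 0 CPM in double-positive cells, against 51.4, 107.9 and 96.5 CPM in double-negative cells, with reads in 4 of 55 and 62 of 90 cells.

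Elastic fibre genes also split the double-positive cells by stage. Fbln5, fibulin 5, had 0 reads in the 22 double-positive cells at E10.5 GL78, and stood at 2716 CPM in 23 of 26 cells at E11.5 GL53 and at 997 CPM in 4 of 7 cells at E11.5 GL78. It had 0 reads in all 90 double-negative cells at either stage. Eln, elastin, was at 9.39, 1399 and 1035 CPM in double-positive cells, against 0, 0.939 and 2.30 CPM in double-negative cells. Mgp, matrix Gla protein, was at 0 CPM at E10.5 GL78 and at 139.8 and 291 CPM at E11.5 in double-positive cells, with 0 reads in every double-negative cell. Batch GL78 holds both stages, so this difference is also seen within a batch, in 22 and 7 double-positive cells.

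Acta2, smooth muscle actin, went the other way, at 221.6 CPM with reads in 12 of 22 double-positive cells at E10.5 GL78, and at 6.58 and 0 CPM in double-positive cells at E11.5 GL53 and E11.5 GL78. In double-negative cells it was at 0, 0.0648 and 1.396 CPM. Other smooth muscle genes are given with the lists of other cell types.

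Venous and lymphatic genes ran in the opposite direction to the arterial ones. Of 11 members of that list at 10 CPM, 0 were higher and 5 lower, and the median log2 ratio was -1.17, beside 3.17% lower among all genes. Nr2f2, the venous regulator, was at 0, 3.08 and 9.56 CPM in double-positive cells, against 49.9, 89.6 and 77.5 CPM in double-negative cells, with reads in 3 of 55 and 81 of 90 cells. Without the repeated cell it was at 0 CPM in double-positive cells at E11.5 GL78. Aplnr, the apelin receptor of venous and sprouting endothelium, was at 22.9, 21.7 and 35.4 CPM, against 801, 1462 and 1267 CPM. Nrp2, a VEGF-C co-receptor, was at 15.4, 7.69 and 11.3 CPM, against 182.95, 345 and 333 CPM in double-negative cells.

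Stab2, the hyaluronan scavenger receptor of sinusoidal endothelium, was at 0, 7.199 and 0 CPM in double-positive cells, against 57.03, 180.3 and 144.99 CPM in double-negative cells. The lymphatic regulator Prox1 was lower too, at -3.22 ± 0.76. Emcn, Ephb4, Flt4 and Dab2 were not called, with log2 ratios of -0.31 ± 0.05, -0.35 ± 0.56, -0.84 ± 0.48 and -1.17 ± 0.74. Stab1 was the highest of the list at 0.30 ± 0.29.

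Among the lower genes outside that list, Lhx6, a LIM homeobox gene, had 0 reads in all 55 double-positive cells and was at 56.8, 66.9 and 70.3 CPM in double-negative cells, with reads in 46 of 90. It was at least 341-fold, 363-fold and 122.6-fold lower in double-positive cells. The homeobox gene Irx3 likewise had 0 reads in 55 double-positive cells and was at 8.34, 10.7 and 12.6 CPM in double-negative cells, at least 50.02-fold, 57.7-fold and 21.9-fold lower in double-positive cells. For both genes, 0 of 55 cells allows a share of up to 6.49%.

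Gpr183, an oxysterol receptor that guides cell migration, was at 5.33, 0.0615 and 0 CPM in double-positive cells, against 109.7, 147.2 and 121.2 CPM in double-negative cells, with reads in 2 of 55 and 75 of 90 cells. Samsn1, a signalling adaptor of hematopoietic cells, was at 3.11, 0 and 0 CPM, against 44.3, 54.5 and 29.7 CPM. The adaptor gene Dok4 had a log2 ratio of -3.25 ± 0.46, Mmrn1, multimerin 1, of -3.54 ± 0.98, Rasd1, a small GTPase gene, of -4.42 ± 0.82, and Fam167b of -3.27 ± 0.39. In each stratum 1 double-positive cell held more than 50% of the counts of Aplnr, Nrp2, Dok4 and Fam167b in its class.

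The general endothelial list differed less. Of its 21 members, 3 were higher and 0 lower, with a median log2 ratio of 0.77, beside 5.87% higher among all genes. The 3 were Sox7 (1.82 ± 0.38), Mmrn2 (1.65 ± 0.38) and Cd34 (1.41 ± 0.36). Erg was at -0.58 ± 1.44, and Kdr, the main VEGF receptor, was at 568, 1394 and 1319 CPM in double-positive cells, against 651, 997 and 1000 CPM in double-negative cells.

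**Figure D2:**
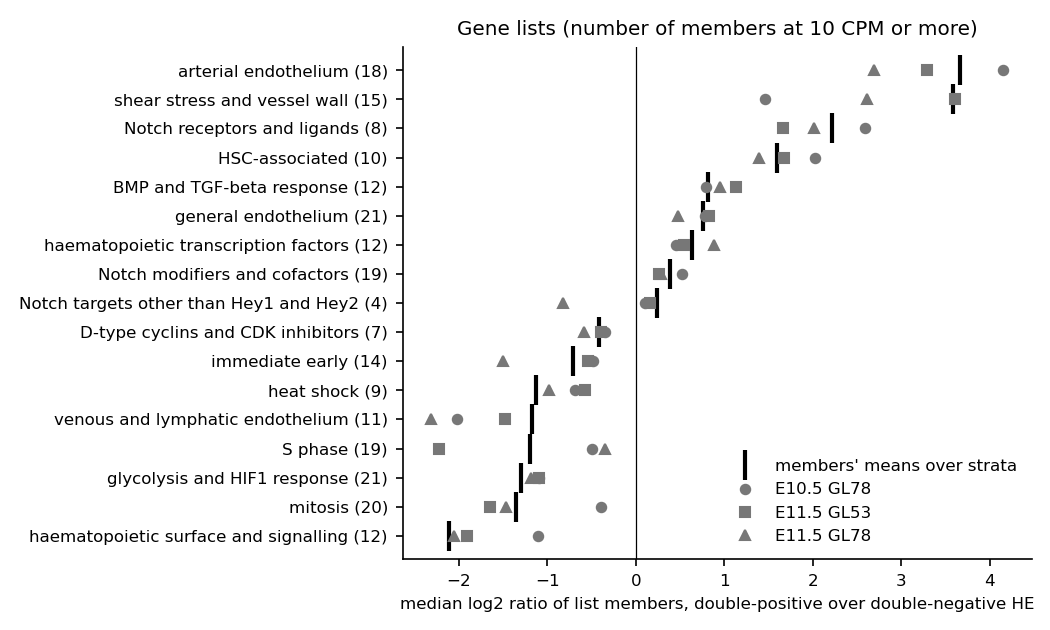
Median log2 ratio (x axis) of the members of each gene list (y axis, with the number at 10 CPM or more), double-positive over double-negative HE; symbols are strata and the bar is the median of the members' means over strata. Of the plotted lists, arterial genes lie farthest right at 3.67 and hematopoietic surface genes farthest left at -2.11.

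Beyond Hey1 and Hey2, the receptors and ligands of the Notch pathway were higher in double-positive cells. Of the 8 members at 10 CPM, 6 were higher and 0 lower, with a median log2 ratio of 2.22, beside 5.87% higher among all genes. Jag1, the Jagged ligand, showed the largest ratio of the family. It was at 181.4, 803 and 373 CPM in double-positive cells, against 12.1, 15.1 and 24.8 CPM in double-negative cells, a log2 ratio of 4.44 ± 1.05, with reads in 51 of 55 and 34 of 90 cells. Jag2 was at 117.2, 63.7 and 147.1 CPM, against 7.47, 16.8 and 16.9 CPM in double-negative cells. Dll4, the arterial Delta ligand, was at 406, 457 and 293 CPM in double-positive cells, against 44.1, 89.99 and 107.9 CPM in double-negative cells, a log2 ratio of 2.31 ± 0.87.

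Among receptors, Notch1 was at 335, 328 and 390.4 CPM in double-positive cells and at 156.2, 142.6 and 185.7 CPM in double-negative cells. Its log2 ratio, 1.12 ± 0.07, was the smallest of the 6 and varied least between strata. Notch4, the endothelial receptor, was at 257.5, 211.3 and 407 CPM, against 51.9, 75.2 and 66.1 CPM, and Notch3, better known from vascular smooth muscle, was at 57.8, 87.3 and 92.96 CPM, against 6.93, 9.42 and 0.768 CPM in double-negative cells. Notch2, Dll1 and Dlk1 had more reads in double-negative cells. Notch2 and Dll1 had log2 ratios of -1.21 ± 0.74 and -1.21 ± 0.83, and neither met the call. Dll3 had 0 reads in both classes, and Dlk1 had reads in 2 of 55 double-positive and 5 of 90 double-negative cells, under 10 CPM in each class.

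Of 9 other Notch targets listed, 4 were at 10 CPM, 0 of these were called higher and 1 was lower, with a median log2 ratio of 0.25. Against the double-negative cells of cluster 1 alone (3, 13 and 4 cells), 1 of the 4 was higher, Gata2 at 2.86 ± 0.99, and 0 were lower. Of all genes, 7.61% were higher and 2.54% lower in that comparison. Hes1, the repressor most often read as a Notch target, was at 63.1, 51.1 and 25.2 CPM in double-positive cells, against 54.5, 40.2 and 43.3 CPM in double-negative cells, -0.07 ± 0.60. Gata2, a hematopoietic regulator, was at 144.4, 148.03 and 128.7 CPM, against 59.6, 59.4 and 239.5 CPM, where 1 double-negative cell at E11.5 GL78 held 81.6% of the counts of its class. Myc, a growth regulator, was the lower one, at 62.4, 42.3 and 67.3 CPM in double-positive cells, against 259.4, 230.4 and 265 CPM in double-negative cells. Heyl, the third HEY gene, was under 10 CPM and so not tested, and is named after its values were seen. It was at 9.44, 7.14 and 3.83 CPM in double-positive cells, with reads in 7 of 55 double-positive and 0 of 90 double-negative cells. These reads came from few cells, and 0 of 90 cells allows a share of up to 4.02%, so no fold is given for Heyl.

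Of 19 modifiers and cofactors of the pathway at 10 CPM, 0 were called in either direction, with a median log2 ratio of 0.39. The highest were Lfng, a Fringe glycosyltransferase, at 1.52 ± 1.42, and the receptor-cleaving protease Adam10 at 1.15 ± 0.43. Among the other Fringe genes, Mfng was at 0.29 ± 0.50 and Rfng at -1.32 ± 3.46. Rfng was at 19.3, 30.6 and 0 CPM in double-positive cells, against 17.96, 12.7 and 37.6 CPM in double-negative cells, so its strata disagreed. Rbpj itself was at 0.54 ± 0.73.

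**Figure D3:**
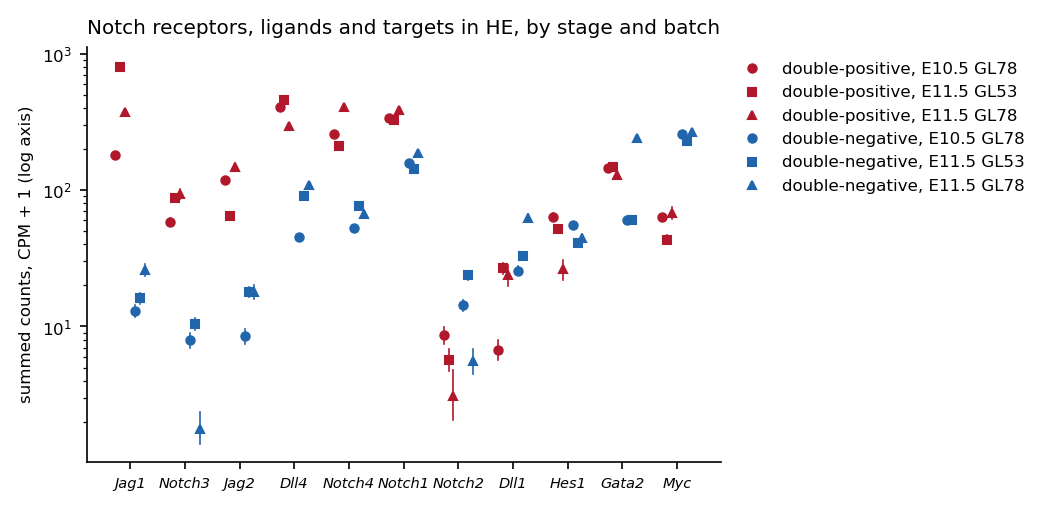
Summed counts of Notch receptors, ligands and targets (CPM + 1, log axis) in double-positive (red) and double-negative (blue) HE; symbols are strata and vertical lines exact Poisson 95% intervals. For Jag1, Notch3, Jag2, Dll4, Notch4 and Notch1 every red symbol lies above every blue one, while for Myc every red one lies below.

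Promoter windows of RefSeq (GRCm38.p6, 250 bases before to 50 bases after the gene start) were read for the motif of RBPJ and for the sites that HEY proteins are known to bind. The RBPJ core was TGGGAA on either strand (TTCCCA on the other), and the HEY sites were CACGTG and CACGCG on either strand (CGCGTG on the other). The letters of the 2 motifs do not overlap each other in the windows shown. The windows shown are those of the chooser gene Hey2, of Jag1 and Dll4, which are 2 of the 3 ligands whose RNA was higher, and of the arterial kinase Bmx, with motif letters in capitals, on the strand of the gene. Hey2 lies at chr10:30842734-30843033 (minus strand), Jag1 at chr2:137116471-137116770 (minus strand), Dll4 at chr2:119325534-119325833 (plus strand) and Bmx at chrX:164258144-164258443 (minus strand).
Hey2: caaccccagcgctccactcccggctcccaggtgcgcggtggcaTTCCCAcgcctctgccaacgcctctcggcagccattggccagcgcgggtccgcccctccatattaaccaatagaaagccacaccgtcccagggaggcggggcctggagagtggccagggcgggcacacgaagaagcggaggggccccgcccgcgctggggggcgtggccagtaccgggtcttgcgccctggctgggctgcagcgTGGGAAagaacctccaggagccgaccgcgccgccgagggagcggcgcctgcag
Jag1: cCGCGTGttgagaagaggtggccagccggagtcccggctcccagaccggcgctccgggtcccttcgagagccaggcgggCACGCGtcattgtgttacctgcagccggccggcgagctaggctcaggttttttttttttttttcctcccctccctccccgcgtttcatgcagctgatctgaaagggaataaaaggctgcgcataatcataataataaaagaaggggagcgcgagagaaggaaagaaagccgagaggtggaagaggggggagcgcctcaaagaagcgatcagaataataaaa
Dll4: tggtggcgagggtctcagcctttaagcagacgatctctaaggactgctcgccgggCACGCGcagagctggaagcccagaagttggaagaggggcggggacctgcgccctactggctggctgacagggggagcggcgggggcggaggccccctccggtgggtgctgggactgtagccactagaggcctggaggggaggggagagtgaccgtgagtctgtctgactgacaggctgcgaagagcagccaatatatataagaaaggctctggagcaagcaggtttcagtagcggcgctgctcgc
Bmx: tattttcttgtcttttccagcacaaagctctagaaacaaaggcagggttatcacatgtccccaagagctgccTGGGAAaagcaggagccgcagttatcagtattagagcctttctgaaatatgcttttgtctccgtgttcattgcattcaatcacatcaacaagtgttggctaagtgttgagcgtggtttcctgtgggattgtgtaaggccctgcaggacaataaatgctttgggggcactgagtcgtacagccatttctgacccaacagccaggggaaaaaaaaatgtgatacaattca
Hey2 had an RBPJ core on each strand, one that begins at base 44 of the window and one 3 bases before the gene start. Bmx had 1 RBPJ core, from base 73 of its window. Jag1 had HEY sites from bases 2 and 80 and Dll4 had one from base 56. Gja5, Gja4, Notch1, Notch3 and Notch4 had neither motif in this window. Of the genes named as lower, Gpr183, Irx3, Fam167b and Mmrn1 had an RBPJ core, and Fam167b had a HEY site too. Stab2, Nrp2, Samsn1 and Nr2f2 had neither motif. Across windows, an RBPJ core was present for 25.1% of higher, 21.4% of lower and 22.4% of 6204 tested genes with a window. A HEY site was present for 21.5, 24.6 and 28.2% of the same genes, and in 15.3% of all 22862 windows, where an RBPJ core was present in 25.5%. These are matches of letters and say nothing of binding.

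The surface signals recorded by the sorter were read apart from the RNA. Each comparison gives the median intensity, in arbitrary units with background that can fall below 0, and the share of all pairs of a double-positive and a double-negative cell in which the double-positive cell was the brighter. DLL4 was brighter in double-positive cells in every stratum. Its median was 97.5 in double-positive and 28.99 in double-negative cells at E10.5 GL78, 48.5 and -0.61 at E11.5 GL53, and 50.3 and -16.2 at E11.5 GL78, and the double-positive cell was the brighter in 82.7, 72.004 and 80.7% of pairs. Dll4 RNA was higher in the same class. Some index-sort records were entered for more than 1 library: those of the repeated double-positive cells, and those of 6 of the 17 double-negative cells at E11.5 GL78, which are shared with GFI1- IAHC libraries of GL53 that differ from them by RNA. Without all of these, the double-positive cell was the brighter for DLL4 in 82.1, 70.9 and 90.9% of pairs.

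The cKIT signal was dimmer in double-positive cells in every stratum, although all of these cells had been sorted as cKIT-. Its median was 42.9 in double-positive and 168.03 in double-negative cells at E10.5 GL78, -30.3 and 126.98 at E11.5 GL53, and -32.7 and 107.09 at E11.5 GL78. The double-positive cell was the brighter in 24.8, 15.9 and 6.72% of pairs, and in 25.1, 16.3 and 10.6% without the shared records. Kit RNA had a log2 ratio of -0.63 and -0.81 in the first and second of these strata and of 0.85 at E11.5 GL78, where reads came from 2 of 7 double-positive cells.

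JAG1 signal did not follow Jag1 RNA. Its median was 7528 in double-positive and 7512 in double-negative cells at E10.5 GL78, 8113 and 8693 at E11.5 GL53, and 13296 and 9526 at E11.5 GL78, and the double-positive cell was the brighter in 57.4, 45.2 and 52.9% of pairs. Without the shared records these shares were 55.4, 43.2 and 48.5%, and the median at E11.5 GL78 was 9441 in double-positive and 9184 in double-negative cells. The Jag1 log2 ratio in the same cells was 3.81, 5.65 and 3.86. NOTCH1 signal had medians of 775 and 736, 522 and 858, and 691 and 842 in double-positive and double-negative cells of these strata, with the double-positive cell the brighter in 52.9, 26.9 and 47.1% of pairs, and in 51.1, 24.6 and 39.4% without the shared records. Notch1 RNA was higher in double-positive cells in all 3.

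CD31 and the GFI1 reporter lay above 50% in each stratum, with mean shares of brighter double-positive cells of 57.3 ± 6.69% and 59.4 ± 7.65% of pairs (SD, n = 3 strata). Without the shared records, CD31 was at 63.02, 49.8 and 51.5% and GFI1 at 66.8, 52.7 and 46.97%, so neither stayed above 50% in every stratum. With all records, NOTCH2, CD45 and CD41 lay on both sides of 50%, at 47.999 ± 6.36%, 46.7 ± 9.30% and 51.1 ± 15.2%. NOTCH2 lay below 50% in every stratum without the shared records, at 49.2, 43.3 and 46.97%. CD45, at 53.5, 34.1 and 39.4%, and CD41, at 70.95, 39.2 and 40.9%, stayed on both sides. CD41, the integrin that marks the first hematopoietic commitment, was brighter in the double-positive cell in 68.6% of pairs at E10.5 GL78, and in 41.1 and 43.7% at E11.5. All cells of the used strata had index-sort values.

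**Figure D4:**
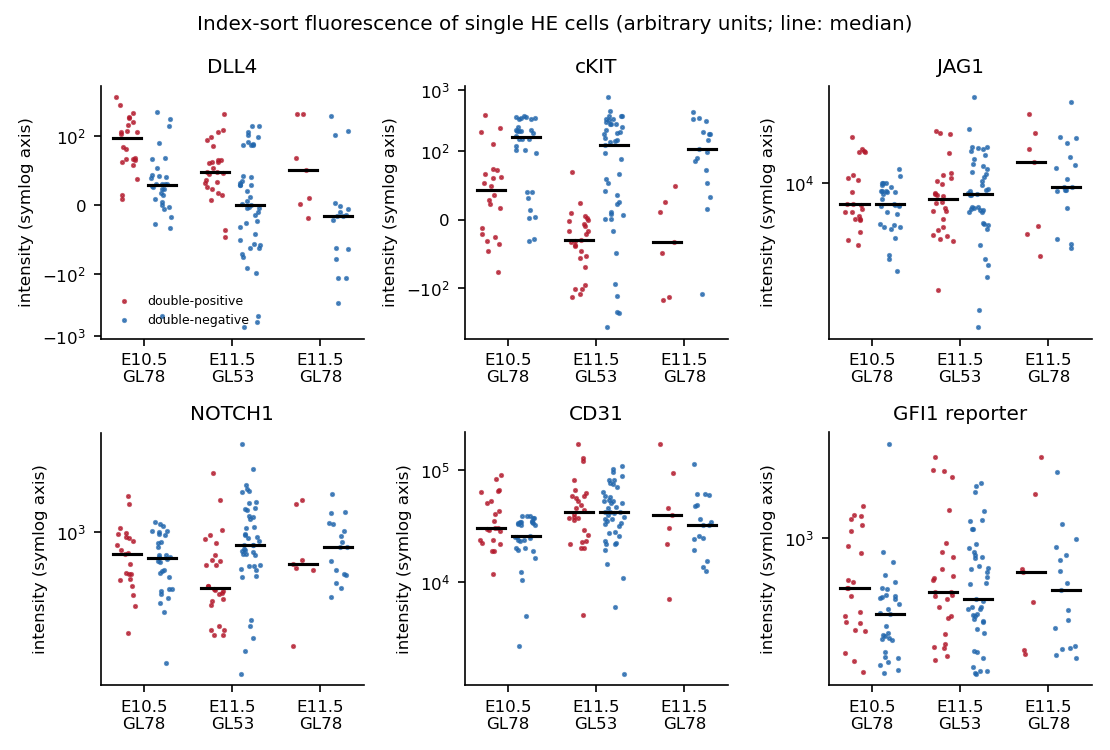
Index-sort intensity of single HE cells (arbitrary units, symmetric log axis) by stratum, double-positive left of double-negative; black lines are medians. DLL4 medians are higher and cKIT medians lower in double-positive cells in all 3 strata, while JAG1 medians lie close at E10.5 GL78 (7528 and 7512).

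Genes associated with hematopoietic stem cells (HSC) were higher as a list. Of 10 members at 10 CPM, 5 were higher and 0 lower, with a median log2 ratio of 1.59, beside 5.87% higher among all genes. Mllt3, a regulator of HSC maintenance, was at 102.8, 253.7 and 192.2 CPM in double-positive cells, against 9.51, 18.8 and 8.09 CPM in double-negative cells. Mecom, which encodes EVI1, was at 275, 647 and 413 CPM, against 20.8, 58.6 and 57.3 CPM. Prdm16 and Procr (EPCR) had log2 ratios of 2.78 ± 0.82 and 2.30 ± 0.66. The lowest member was Msi2 at -0.81 ± 1.10. Mecom is also expressed in arterial endothelium, as background.

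Hematopoietic transcription factors had calls in both directions. Of 12 members at 10 CPM, 2 were higher and 2 lower, beside 5.87% and 3.17% among all genes, with a median log2 ratio of 0.64. Against the double-negative cells of cluster 1 alone (3, 13 and 4 cells), 4 of 10 were higher and 0 lower, with a median of 2.02. Of all genes, 7.61% were higher and 2.54% lower in that comparison. Among cells called G1, 1 of 14 was higher and 0 lower, with a median of 0.17, beside 4.81% and 3.12% of all genes. Meis1, a homeobox partner of HOX proteins, was higher at 97.4, 68.7 and 27.7 CPM, against 9.59, 23.3 and 2.86 CPM in double-negative cells, and so was Cbfa2t3 (ETO2), at 1.90 ± 0.45. Runx3 had 0 reads in all 55 double-positive cells, and Ikzf1 was at 0.0556, 6.09 and 0 CPM, against 6.63, 27.4 and 20.7 CPM in double-negative cells. In double-negative cells Runx3 reads came from 4 of 90 cells, at 24.4, 5.89 and 19.2 CPM.

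Of the lists for endothelium and blood, the hematopoietic surface and signalling genes had the lowest median, at -2.11 (-2.22 with bounds). Of 12 members 1 was higher and 6 lower, beside 5.87% and 3.17% among all genes. These reads came from few cells. Ptprc, which encodes CD45, had 0 reads in 55 double-positive cells and reads in 6 of 90 double-negative cells, at 26.9, 23.4 and 53.8 CPM. Since 0 of 55 cells allows a share of up to 6.49%, no fold is given for it. Itgb2, a leukocyte integrin, had reads in 0 of 55 and 5 of 90 cells. Without the cells of cluster 2, a choice made after seeing the data, the list's median was 0.43, and against the double-negative cells of cluster 1 alone it was 0.82, so its direction turned in both. The higher member was Cd44, the hyaluronan receptor that marks cells entering the endothelial-to-hematopoietic transition, at 236.3, 205.6 and 41.9 CPM in double-positive cells, against 4.47, 29.5 and 2.72 CPM in double-negative cells.

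BMP and TGF-beta response genes leaned to the double-positive side. Of 12 members at 10 CPM, 5 were higher and 1 lower, beside 5.87% and 3.17% among all genes. The median log2 ratio was 0.82, which was 0.64 without the repeated cell in E11.5 GL53 and 0.60 without it in E11.5 GL78. Smad6, an inhibitor of BMP signalling, was at 98.6, 148.3 and 195.5 CPM in double-positive cells, against 1.402, 6.41 and 11.7 CPM in double-negative cells. Smad7, its TGF-beta counterpart, and the BMP targets Id1 and Id2 had log2 ratios of 3.32 ± 1.94, 2.09 ± 0.64 and 1.36 ± 0.27, and the receptor Bmpr2 of 1.78 ± 0.57. Tgfbi, a matrix protein induced by TGF-beta, went the other way, with 0 reads in 55 double-positive cells and 10.3, 119.7 and 97.7 CPM in double-negative cells, at least 61.6-fold, 648-fold and 170.2-fold lower in double-positive cells.

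Glycolytic genes were lower. Of 21 members of the glycolysis and HIF1 list, 1 was higher and 8 lower, 20 had a mean log2 ratio below 0, and the list's median was -1.29, beside 3.17% lower among all genes. Ldha, lactate dehydrogenase A, was at 1243, 719 and 587 CPM in double-positive cells, against 2856, 1533 and 1426 CPM in double-negative cells, -1.19 ± 0.09. Pfkl, a phosphofructokinase, had -1.49 ± 0.13, Eno1, an enolase, -1.37 ± 0.32, and Gapdh -1.24 ± 0.21, whose call was lost without the repeated cell in E11.5 GL78. The lowest was the glucose transporter gene Slc2a3 at -3.05 ± 3.23, not called, and the exception was Vegfa, the VEGF ligand, at 8.00, 30.1 and 34.2 CPM, against 0.0758, 0.0972 and 0 CPM in double-negative cells. Among cells called G1 alone the list's median was -1.12, with 1 of 21 members higher and 1 lower, beside 4.81% and 3.12% of all genes.

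Proliferation genes were lower on average and varied between strata. Of 19 S phase genes 0 were called and 18 had a mean below 0, with a median of -1.20, and of 20 mitosis genes 1 was lower and 20 had a mean below 0, with a median of -1.35. The called one was Birc5, survivin, at -1.36 ± 0.32, and Tpx2, a spindle factor, was the lowest at -1.98 ± 1.24. The S phase median by stratum was -0.49, -2.22 and -0.34, and that of mitosis -0.39, -1.65 and -1.46. Ccnd1, cyclin D1, was at 48.3, 12.2 and 29.3 CPM in double-positive cells, against 306, 206.4 and 335 CPM in double-negative cells, with reads in 17 of 55 and 81 of 90 cells. The CDK inhibitor gene Cdkn1c was at 543, 187.8 and 363 CPM, against 102.4, 130.4 and 167.9 CPM, and was not called (1.34 ± 0.96). The call of G1 was higher in double-positive cells in each stratum, at 14 of 22, 24 of 26 and 5 of 7 cells, against 5 of 30, 20 of 43 and 10 of 17 double-negative cells.

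Stress genes were lower on average, with few of them called. Of 14 immediate early genes 1 was lower, Atf3 at -3.42 ± 2.27, 12 had a mean below 0, and the median was -0.71. Of 9 heat shock genes 2 were lower, Hspb1 at -3.77 ± 1.19 and Hspd1 at -1.31 ± 0.23. All 9 had a mean below 0, and the median was -1.13. Among all genes 3.17% were lower. Hspa1b was at 194.2, 19.4 and 0 CPM in double-positive cells, against 212.6, 19.7 and 398 CPM in double-negative cells. The highest of the immediate early genes was Btg2 at 0.55 ± 0.30.

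Markers of other cell types were not equal between the classes. Summed over the 10 mesenchymal genes, double-positive cells had 43.7, 209.2 and 126.6 CPM and double-negative cells 1.71, 5.28 and 18.98 CPM, and of the genes of this list 2, 4 and 7 were at 0 in double-positive and 7, 8 and 8 in double-negative cells, with Dcn and Lum at 0 in all. Col1a2 was called higher and had reads in 14 of 55 double-positive and 4 of 90 double-negative cells. The 7 smooth muscle genes summed to 404, 57.2 and 78.4 CPM in double-positive cells, against 13.9, 51.1 and 19.9 CPM in double-negative cells, with the contractile genes Actg2 and Des at 0 in all.

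The 7 neural genes summed to 259.04, 910.1 and 921 CPM in double-positive cells, against 44.4, 78.5 and 33.1 CPM in double-negative cells. Most of these reads were from Stmn2 (3.65 ± 1.56) and Isl1 (3.57 ± 1.33), with the neural crest gene Sox10 at 0 in all. The 9 epithelial and mesonephric genes summed to 100.6, 156.3 and 97.9 CPM, against 9.40, 7.38 and 0 CPM in double-negative cells, in double-positive cells mostly Krt18, with reads in 28 of 55 double-positive and 4 of 90 double-negative cells, while Cdh1, E-cadherin, was at 0 in double-positive cells.

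The 10 macrophage genes summed to 14.7, 85.95 and 5.36 CPM in double-positive cells, against 56.2, 158.6 and 70.1 CPM in double-negative cells, and the 10 megakaryocyte genes to 101.995, 19.7 and 10.3 CPM, against 12.9, 168.5 and 25.9 CPM. The 13 erythroid genes summed to 51.5, 41.7 and 23.3 CPM in double-positive cells, against 8.60, 22.3 and 29.1 CPM, and the 8 germ cell genes to 28.999, 33.9 and 65.99 CPM, against 18.6, 15.9 and 11.51 CPM, with Dppa3, Pou5f1, Dazl and Ddx4 at 0 in all. The part of other cells or of their free RNA in the results was not tested.

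In every one of the 3 strata, Hey1-only cells lay between the classes for 35.1% of the 589 higher genes other than Hey1 and Hey2 and for 44.2% of the 319 lower genes, beside 12.8% of all 10072 tested genes. The called genes were chosen for standing apart between the other classes, so nothing is read from the higher shares. Over the 589 genes the median log2 ratio to double-negative cells was 2.22, 2.28 and 2.44 in double-positive cells and 1.15, 0.40 and 0.12 in Hey1-only cells, and over the 319 it was -1.58, -2.43 and -2.88 in double-positive cells and -0.52, -0.52 and -0.57 in Hey1-only cells. Gja5 was at 372, 49.000 and 14.8 CPM in the 23, 40 and 14 Hey1-only cells, and Gja4 at 843, 459 and 308 CPM. Jag1, at 39.05, 35.98 and 9.75 CPM, overlapped the levels of double-negative cells, whereas Dll4, at 226.6, 289.5 and 246.1 CPM, was closer to the double-positive than to the double-negative level in each stratum. Aplnr in Hey1-only cells was at 421, 821 and 796 CPM and Ccnd1 at 147.8, 136.6 and 184.1 CPM. The medians of DLL4 signal in these cells, 87.9, 60.5 and 41.9, were close to those of double-positive cells, and the medians of cKIT signal, 146.4, 139.4 and 126.995, to those of double-negative cells.

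The 9 Hey1-only cells in cluster 4 had a median Gja5 of 1319 CPM per cell and 0 of 9 had Aplnr reads, whereas the 56 Hey1-only cells in cluster 1 had a median Gja5 of 0 CPM and a median Aplnr of 801 CPM, with Hey1 medians of 488 and 161.4 CPM. The 7 Hey2-only cells, all in cluster 4, had median Gja5, Jag1 and Bmx of 1076, 763 and 539 CPM. The 6 double-positive cells outside cluster 4 had medians of 50.3, 19.3 and 0 CPM for these genes, against 1528, 427 and 114.5 CPM in the 53 within it. Dll4, named after its values were seen, had medians of 326 CPM in those 6, 321 CPM in the 53 and 102.4 CPM in the 7 Hey2-only cells. In 3 of those 6 Aplnr had reads, and 4 of the 6 had 4 or fewer counts of Hey2.

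**Figure D5:**
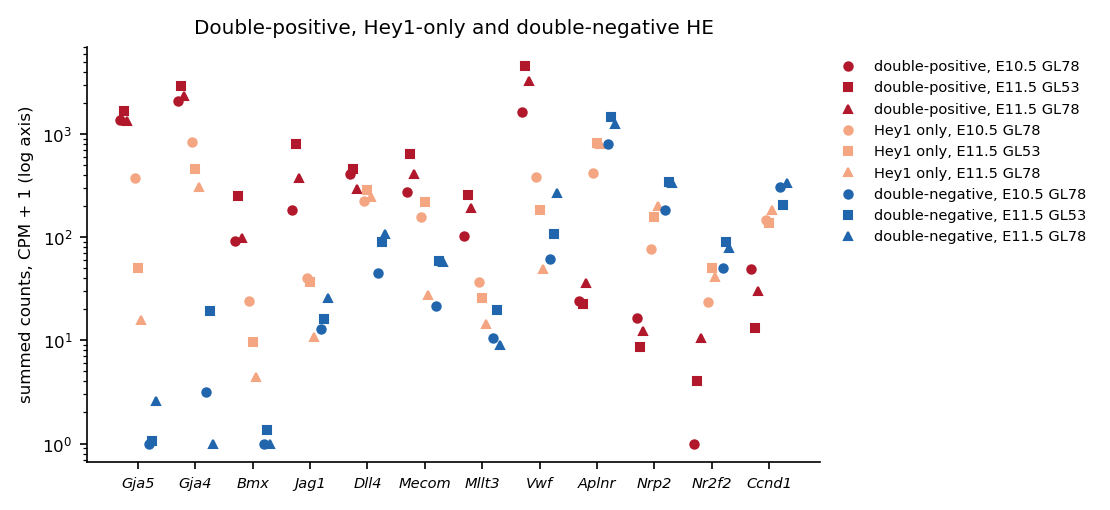
Summed counts (CPM + 1, log axis) of 12 genes in double-positive, Hey1-only and double-negative HE; symbols are strata. For Gja5, Gja4 and Bmx all Hey1-only symbols lie between the other classes; Aplnr, Nrp2, Nr2f2 and Ccnd1 are lowest in double-positive cells.

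By stage, E11.5 alone (2 strata) gave 1006 higher genes of 10205 (9.86%) and 942 lower (9.23%), and E10.5 alone (1 stratum) 1603 higher of 9665 (16.6%) and 832 lower (8.61%). Both stages shared 487 higher and 274 lower genes, while 14 were higher at E11.5 and lower at E10.5 and 43 the reverse. The difference between stages was not tested. In batch GL58, which had too few cells for the comparison, Gja5 was at 2426 CPM in the double-positive cell and 0 CPM in the double-negative cells at E10.5, and at 1006 and 0 CPM at E11.5. Aplnr was at 0 and 1052 CPM, and at 0 and 657 CPM, in the same order of class and stage. Mllt3 was at 0 CPM in the E10.5 double-positive cell of that batch, against 11.4 CPM in its double-negative cells. That double-positive library repeats a cell of E10.5 GL78, so it is not a separate reading.

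Against the double-negative cells of cluster 1 alone (3, 13 and 4 cells, a comparison added after seeing the data), 764 genes were higher (7.61%) and 2.54% of tested genes lower, and 52.7% of the higher and 45.5% of the lower ones were called in the comparison with all double-negative cells too. The median of all genes moved to 0.14. The arterial median was 5.01, the venous and lymphatic -2.34, the Notch receptor and ligand 1.45, and the HSC-associated 2.40. There the log2 ratio was 1.31 ± 1.97 for Dll4, 0.76 ± 0.31 for Notch1 and 5.79 ± 2.96 for Jag1.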

How the data were processed

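Single cells of pooled embryos were index-sorted and made into Smart-Seq2 libraries. The authors deposited raw counts per gene and cell (STAR 2.7.3 and HTSeq 0.9.1 on mm10, per the submitters' processing notes), and a normalized table that was not used here. The cell table deposited by the authors gives each cell's gate, stage, batch, Louvain cluster and Cyclone phase, its mitochondrial share as a fraction, and the index-sort fluorescence as an intensity in arbitrary units. Cells kept by the authors had at least 2500 genes and 50000 counts and at most 5% mitochondrial counts, and how doublets were treated is not given in the sources used here. Earlier results of these data were known when the 103 double-negative and 59 double-positive cells, and the gene lists, were chosen.

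Counts were summed over the cells of a class in each stratum and divided by the class total to give CPM (numpy 2.4.6, pandas 2.3.3, scipy 1.17.1, python 3.11.15). Each HE cell used had 157932 to 2296823 counts. Ratios are log2(CPM + 1). CPM have exact Poisson intervals and shares exact Clopper-Pearson intervals at 95%, which cover counting error only, since PCR reads without molecular identifiers are not independent molecules. For the genes named by size, each limit of the Poisson interval lay at most 15.7% away from the CPM of the higher class. A gene at 0 was set to a floor of 3 counts per class and stratum for a bound. Libraries whose log2 scaled counts correlated over 0.95, a limit chosen after seeing the data, were read as repeats of a cell, and results were computed with and without them. No embryo is named and cells are not replicates, so no test was run. The table held 46078 genes, of which 45143 had a symbol; genes without one took 0.0624% of counts. Levels were not compared between genes.

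The text names the 12 genes per direction with the largest smallest-stratum ratio, among genes called, with reads in at least 25% of cells of the higher class and no cell over 50% of its counts; Gfi1, Kit, Pecam1, Ptprc and the Notch genes; and the highest or lowest members of the other lists (25 lists, 334 symbols). Other list members were picked as examples after their values were seen, and some members are not reported here. The calculation was tested on simulated counts. Alternatives changed the pseudocount, the level filter, the summing, the depth, the scaling, the class rule, the clusters, the phase, the cell minimum, the weights, the strata used and the repeated cell.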

Additional observations from a re-analysis of the deposited data

Results flagged for a closer look

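Runx1 differed in direction between stages. Its log2 ratio of double-positive over double-negative HE was -3.61 at E11.5 (mean of 2 strata) and 1.59 at E10.5 (1 stratum). The reads came from 2 of 26 and 0 of 7 double-positive cells at E11.5, against 4 of 43 and 1 of 17 double-negative cells, and from 9 of 22 double-positive and 2 of 30 double-negative cells at E10.5. Lyve1, a lymphatic and macrophage receptor, did likewise, with -1.89 at E11.5 and 2.26 at E10.5, where 68 counts in 3 of 22 double-positive cells stood against 0 in double-negative cells. Neither difference was tested, and both rest on few cells.

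Cells with both genes were also found outside the HE gate, in data that the report's comparisons do not use. Of 494 kept IAHC cells, 11 carried reads of both Hey1 and Hey2, which is 2.23% (1.12 to 3.95%). In HE the share was 59 of 281 cells (16.4 to 26.2%). Of the 11 IAHC cells, 3 lay in cluster 4, 3 in cluster 6 and 2 in cluster 2.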

How the results depend on the processing

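No paired analysis was possible because the classes carry no replicate numbers in the labels and the results come from no test; each ratio is formed within a stratum. Of the recomputed list medians, 380 kept their size within the spread of strata, 64 moved beyond it, and 5 with one direction in all 3 strata turned sign. The genes called numbered 591 higher and 319 lower. Leaving out each stratum in turn gave 863 to 1006 higher and 462 to 942 lower, where a call needed agreement in fewer strata. A minimum of 10 cells per class removed E11.5 GL78. It gave the same 886 higher and 500 lower genes as leaving out that stratum. A pseudocount of 5 CPM gave 421 higher. The glycolysis median of -1.29 was -1.22 with a pseudocount of 5 CPM, -1.41 as a mean over cells, -1.39 after thinning, -1.43 with both genes at 10 or more counts, -1.22 over all 11 clusters and -1.12 in G1 cells, and -1.32 to -1.24 with one stratum left out. The venous and lymphatic median was -1.89 to -1.37 with one stratum left out. Against the double-negative cells of cluster 1 alone, chosen after seeing the data, the arterial median was 5.01, the venous and lymphatic -2.34 and the Notch receptor and ligand 1.45. The 5 that turned sign were the hematopoietic surface list at 0.82 against cluster 1 and 0.43 without cluster 2, D-type cyclins and CDK inhibitors at 0.56 against cluster 1, macrophage genes at 0.35 with no level filter, and megakaryocyte genes, whose median was -3.75 to 1.76 with one stratum left out and above 0 without E11.5 GL53; the cause was not tested. Another 6 medians, of lists without one direction in the strata, also changed sign: Notch targets to -0.12 against cluster 1, -0.00 without E10.5 GL78 and -0.04 without E11.5 GL53, germ cell genes to -0.08 against cluster 1, and erythroid genes to -1.65 over all 11 clusters and -0.05 without E10.5 GL78. Comparisons within cluster 4 and without it were not run, because no stratum then had 5 cells of both classes.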
